A study of Mus musculus with 15 samples.

Results

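Primary mouse granulosa cells depleted of Foxl2 with small interfering RNA (siRNA) were compared between 54 h and 30 h after transfection. The comparison takes the 3 libraries of the Foxl2 siRNA at 54 h and the 3 at 30 h, 6 of the 15 RNA-seq libraries in the series, and covers all 24490 genes counted, of which 14907 had enough reads to be tested. Granulosa cells are the somatic cells that surround the oocyte in the ovarian follicle. They were taken from 8-week-old RjOrl:SWISS females and transfected in plates with 30 pmol of a pool of 3 siRNAs, using the lipid reagent Lipofectamine RNAiMax. The other libraries used here are those of a non-targeting scrambled siRNA at 30 h and at 54 h (3 each, same amount and reagent), and 3 libraries of an Esr2 siRNA at 30 h entered the fit only. All groups were therefore transfected, and no untransfected or freshly isolated cells are among them. The labels describe 4 pools of Foxl2 siRNAs without saying which library received which, and they give the same catalogue numbers for the Foxl2 and the Esr2 pools. They do not say whether libraries of a group came from separate animals or cultures, so p-values measure the spread between libraries, which may be technical. Values are CPM, gene counts scaled to a common library size with TMM factors, and replicates are given in the order 1, 2, 3.

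FOXL2 is a forkhead transcription factor that granulosa cells need to keep their ovarian identity: when it is lost from adult mouse granulosa cells, genes of Sertoli cells, the supporting cells of the testis, are switched on. It acts with the oestrogen receptor ESR2 and the nuclear receptor NR5A1 at genes of follicle growth and steroid synthesis, and FOXL2 mutations underlie ovarian insufficiency and granulosa cell tumours. Comparing the depleted cells with themselves at a later hour asks which RNAs went on changing after the depletion was in place, and the scrambled cells at the same hours give the changes with time in culture.

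The targeted gene itself did not separate the times. Foxl2 (chr9:98955288-98958543, plus strand, GRCm38) was at 33.8, 28.4 and 65.4 CPM at 30 h and 33.7, 57.5 and 25.2 CPM at 54 h. Foxl2 did not pass (log2 change -0.13, SE 0.30, adjusted p = 0.849). Scrambled cells were at 157 ± 16.1 CPM at 30 h and 169 ± 17.6 CPM at 54 h (SD, n = 3). The depletion was uneven: 30 h replicate 3 and 54 h replicate 2 kept more Foxl2 RNA than the other libraries of their group, and the groups overlapped. Esr2, which encodes oestrogen receptor beta, followed the same libraries at 29.2, 25.0 and 45.5 CPM at 30 h and 18.0, 49.3 and 15.7 CPM at 54 h. Esr2 did not pass (log2 change -0.26, SE 0.34, adjusted p = 0.710). On the first principal component of the 6 libraries, which took 43.9% of their variance, the 30 h libraries lay at -2.22, -6.05 and -41.0 and the 54 h libraries at 42.2, -20.9 and 28.0, so that 54 h replicate 2 lay inside the range of 30 h. The Foxl2 siRNA libraries held 47647007 to 59550065 gene counts and the whole series 44976872 to 59550065, and 3 counts correspond to at most 0.0630 CPM. Of granulosa markers, Inha, the inhibin alpha subunit, was at 1958, 1425 and 2407 CPM at 30 h and 1602, 2239 and 1411 CPM at 54 h. Nr5a1 was at 140.1, 124 and 138 CPM at 30 h and 122, 126 and 119 CPM at 54 h, while Fshr, the receptor for follicle-stimulating hormone, was below 1 CPM in every Foxl2 siRNA library and averaged 0.408 CPM in scrambled cells at 30 h.

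From 30 h to 54 h, 560 genes rose (3.76% of those tested) and 490 fell (3.29%), together 1050 or 7.04%, at an adjusted p under 0.05 in edgeR's quasi-likelihood test with all 15 libraries in the fit. The rises were the larger: 172 genes rose by 2-fold or more and 29 fell by as much. Of the 1050 genes, 978 had all 3 libraries of 1 time above all 3 of the other, which held for 8.94% of all genes tested in the upward and 8.49% in the downward direction. These calls rest on the spread borrowed from all 15 libraries. When only the 6 Foxl2 siRNA libraries were fitted, no gene passed in edgeR (lowest adjusted p = 0.0870). In that fit 1800 genes had an unadjusted p under 0.05, among them 1037 of the 1050. The 1050 were picked on these same libraries, so this overlap is no separate support for them. Single libraries also moved the count, from 328 without 54 h replicate 1 to 2637 without 54 h replicate 2, with 470 without 30 h replicate 1 and 484 without 30 h replicate 3. Without both libraries that kept the most Foxl2, 2055 genes were called, 881 of them among the 1050, and all 1050 kept their sign. The libraries of that fit are again part of those on which the 1050 were picked. With the log2 Foxl2 level as a covariate in the 6 libraries, 36 genes were called, against 0 in the same 6 libraries without it. A set of 253 genes, 153 higher and 100 lower, was called with all libraries and in each of the 6 leave-one-out fits, which left out 1 Foxl2 siRNA library each. A gene is said to hold when it is among these, and for other genes the libraries whose removal ended the call, or the number of leave-one-out fits that called them, are given.

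**Figure D1:**
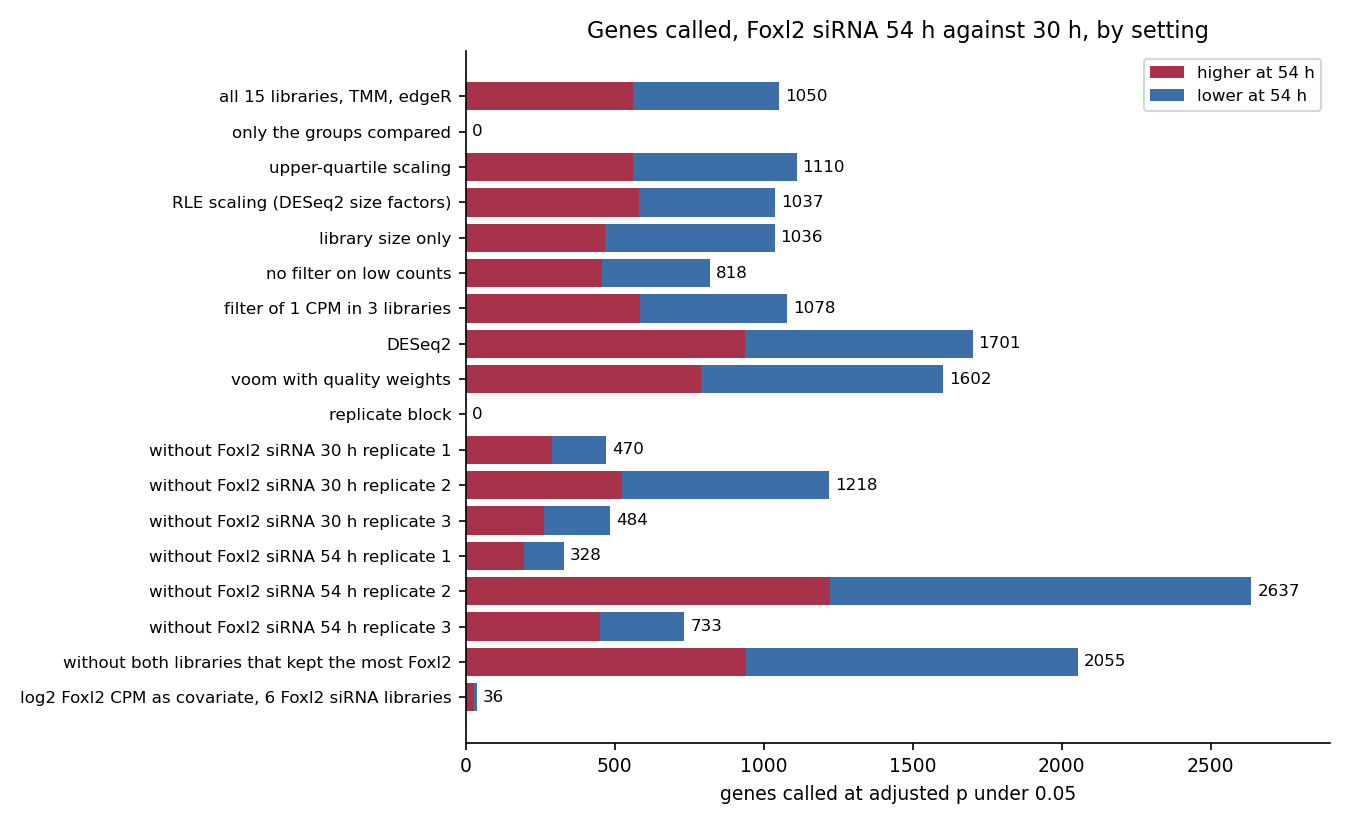
Number of genes called at an adjusted p under 0.05 in Foxl2 siRNA cells, 54 h against 30 h, under each setting; red, higher at 54 h, blue, lower, with the sum at the end of each bar. The count was 1050 with all libraries, 0 with only the 6 libraries or with a replicate block, and 2637 without 54 h replicate 2.

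In scrambled cells the same test over the same hours called 1 gene of 14907 (0.00671%), Bcar1, an adaptor of focal adhesions named here because it was the only call, and 727 genes had an unadjusted p under 0.05. Scrambled libraries of the same number deviated together for replicates 1 and 2 (r = 0.632 and 0.490) but little for replicate 3 (r = 0.143). With the replicate number as a block, 1586 genes were called in scrambled cells. The count of 1 belongs to the edgeR fit of all 15 libraries without the block. With only the scrambled libraries fitted, also without the block, edgeR called 206 genes. The matching fit of only the Foxl2 siRNA libraries called 0. DESeq2 called 63 genes in scrambled cells and voom with quality weights 2693. Of the 1050 genes called in Foxl2 siRNA cells, 826 had a change of the same sign in scrambled cells and 224 the opposite sign. The test of the difference between the changes, which uses the same Foxl2 siRNA libraries, called 1 gene (0.00671%). This test gave 1510 genes an unadjusted p under 0.05, 719 of them among the 1050. It called 199 with DESeq2, 1056 with voom, 904 without Foxl2 siRNA 54 h replicate 2 and 16 without 54 h replicate 3. The gene called by this test was Gadd45b.

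**Figure D2:**
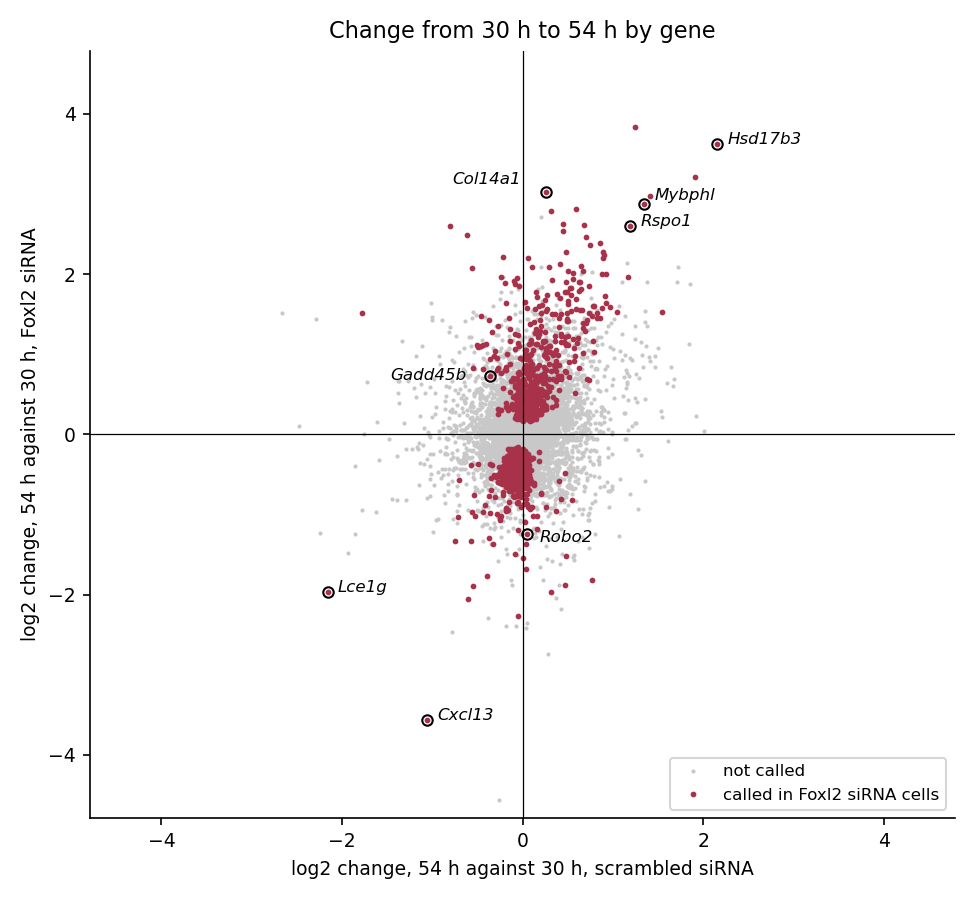
Log2 change from 30 h to 54 h of each of 14907 genes in scrambled cells (x) and Foxl2 siRNA cells (y); red, the 1050 genes called in Foxl2 siRNA cells. Of the called genes 826 have the same sign on both axes and 224 opposite signs; Gadd45b lies left of 0 and above it.

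Gadd45b encodes a stress-induced protein that can hold cells at checkpoints and acts on stress kinase signalling. Gadd45b (chr10:80930073-80932204, plus strand) was at 45.4, 51.7 and 50.6 CPM at 30 h and 86.5, 77.3 and 81.1 CPM at 54 h with Foxl2 siRNA. All libraries of 54 h lay above all libraries of 30 h, with a narrow spread at each time. It rose 1.66-fold (log2 change 0.73, SE 0.08, adjusted p = 0.000947) and held. In scrambled cells it was at 29.2 ± 1.499 CPM at 30 h and 22.8 ± 2.60 CPM at 54 h (SD, n = 3), a log2 change of -0.36 (adjusted p = 0.340), and the changes differed (difference of the log2 changes 1.09, adjusted p = 0.00778; adjusted p = 0.0760 with the replicate number as a block). In the list of cell cycle inhibitors and growth arrest genes, 3 of 25 tested members rose and 1 fell (median log2 change 0.16, against -0.02 in scrambled cells; the count of rises ran from 1 without 30 h replicate 3 to 7 without 54 h replicate 2). Together 16% of this list passed, beside 7.04% of all genes tested. Of the other rises, Gas1, a membrane protein of growth arrest, was at 10.2, 12.8 and 12.8 CPM at 30 h and 23.4, 30.1 and 24.5 CPM at 54 h. Gas1 rose (log2 change 1.13, SE 0.25, adjusted p = 0.0203). Cdkn2a, which encodes the INK4A and ARF inhibitors of the cell cycle, was at 2.62, 1.46 and 2.24 CPM at 30 h and 4.58, 3.45 and 3.54 CPM at 54 h. Cdkn2a rose (log2 change 0.87, SE 0.22, adjusted p = 0.0346). Rbl1, a pocket protein related to the retinoblastoma protein, fell from 36.9, 38.8 and 35.2 CPM at 30 h to 23.8, 28.3 and 28.7 CPM at 54 h (log2 change -0.46, SE 0.08, adjusted p = 0.00746) and held. Gas1 was not called without 30 h replicate 1 or 3 (adjusted p from 0.0540 to 0.0756). Cdkn2a was not called without 30 h replicate 2 or 3 or 54 h replicate 1 or 3 (adjusted p from 0.0555 to 0.139).

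Many genes of cell division fell. Of the 42 genes of mitosis and the spindle, 20 fell and none rose, with a median log2 change of -0.62, and of the 42 genes of DNA replication and S phase 18 fell and none rose, with a median of -0.47. These were 47.6% and 42.9% of the lists, and 3.29% of all genes tested fell. All 84 changes were negative, from -0.79 to -0.35 in the first list and from -0.77 to -0.09 in the second, beside a median of -0.00182 and 50.4% negative changes over all genes tested. In scrambled cells the medians were -0.06 and -0.04, and no member passed the test of the difference (lowest adjusted p = 0.183 and 0.0961). In bulk RNA, fewer cells in cycle and less of these RNAs in each cycling cell cannot be told apart.

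Many mitotic promoters carry the hexamer TTTGAA, the core of the cell cycle homology region at which the DREAM and MuvB complexes act, close to the transcription start. The 4 members below were picked, after their values were seen, as called genes with the hexamer in the 100 bases before the start, so that the element can be read in place (RefSeq annotation, GRCm38.p6; 5′ to 3′ on the gene's strand; capitals mark TTTGAA or its reverse complement TTCAAA).
Ube2c: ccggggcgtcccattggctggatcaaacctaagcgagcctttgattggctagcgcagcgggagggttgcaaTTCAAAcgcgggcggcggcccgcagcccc
Mki67: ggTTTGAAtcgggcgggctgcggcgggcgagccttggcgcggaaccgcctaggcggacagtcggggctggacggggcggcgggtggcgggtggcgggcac
Top2a: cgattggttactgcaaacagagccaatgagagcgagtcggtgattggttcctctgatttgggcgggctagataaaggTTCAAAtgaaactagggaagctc
Prc1: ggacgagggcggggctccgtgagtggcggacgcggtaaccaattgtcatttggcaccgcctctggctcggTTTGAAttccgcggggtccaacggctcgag
They lie at chr2:164769829-164769928 (Ube2c, plus strand), chr7:135716380-135716479 (Mki67, minus strand), chr11:99024190-99024289 (Top2a, minus strand) and chr7:80294376-80294475 (Prc1, plus strand). In windows of 250 bases before to 50 after the start, searched on both strands, TTTGAA was in 75.0% of the 36 windows of the 34 mitosis genes that matched, against 17.9% of all 32851 windows. TTTGGCGC or TTTCCCGC, forms of the E2F site, was in 27.5% of the 40 windows of the 34 S-phase genes that matched, against 1.56% of all. These windows cover matched members whether called or not. In the 100 bases before the start, the search for sequences to print found only the 4 called mitosis genes shown with the hexamer. It found no called S-phase gene with an E2F form there. The forkhead core TAAACA was in 0 of 13 windows of the 12 genes with the largest rise and in 11.8% of the 17 windows of the 12 with the largest fall, against 13.4% of all, with 9 and 11 of the genes matched. A match describes the letters and is not a measured binding site.

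Ube2c, the ubiquitin-conjugating enzyme that works with the anaphase-promoting complex, was at 70.1, 61.6 and 100.3 CPM at 30 h and 34.4, 60.8 and 39.2 CPM at 54 h. Ube2c fell (log2 change -0.79, SE 0.20, adjusted p = 0.0363). Kif18a, a kinesin that aligns chromosomes, was at 15.9, 14.5 and 20.7 CPM at 30 h and 8.18, 12.6 and 9.07 CPM at 54 h. Kif18a fell (log2 change -0.77, SE 0.16, adjusted p = 0.0156). For both, the libraries of the times did not overlap, but 54 h replicate 2 lay closest to 30 h and far above the other 54 h libraries. Of the S-phase genes, Rrm2, a subunit of ribonucleotide reductase, was at 154, 130.0 and 172 CPM at 30 h and 67.8, 114 and 86.0 CPM at 54 h. Rrm2 fell (log2 change -0.77, SE 0.15, adjusted p = 0.0115). Mcm10, needed to start replication, was at 19.4, 15.7 and 20.2 CPM at 30 h and 9.79, 12.8 and 11.6 CPM at 54 h. Mcm10 fell (log2 change -0.69, SE 0.12, adjusted p = 0.00753). Both held. Ube2c was not called without 30 h replicate 1 or 3 or 54 h replicate 1 or 3 (adjusted p from 0.0650 to 0.145). Kif18a was not called without 30 h replicate 3 or 54 h replicate 1 (adjusted p from 0.0556 to 0.0655). Taking each gene relative to its mean in scrambled cells at 30 h, the median mitosis gene was at -0.31, -0.55 and 0.03 log2 units in the 30 h libraries and at -1.13, -0.41 and -1.05 in the 54 h libraries, and the median S-phase gene at -0.24, -0.50 and -0.04 and at -0.90, -0.36 and -0.76. By these medians 54 h replicate 2 lay above 30 h replicate 2, so the lists as a whole overlapped between the times. The number of members that fell ran from 2 without 54 h replicate 1 to 42 without 54 h replicate 2 for mitosis and from 4 without 54 h replicate 1 to 34 without 54 h replicate 2 for S phase, was 7 and 5 without 30 h replicate 1, and was 42 and 29 without both libraries that kept the most Foxl2. With only the 6 libraries in the fit, no member of either list was called, with or without the Foxl2 level as a covariate.

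**Figure D3:**
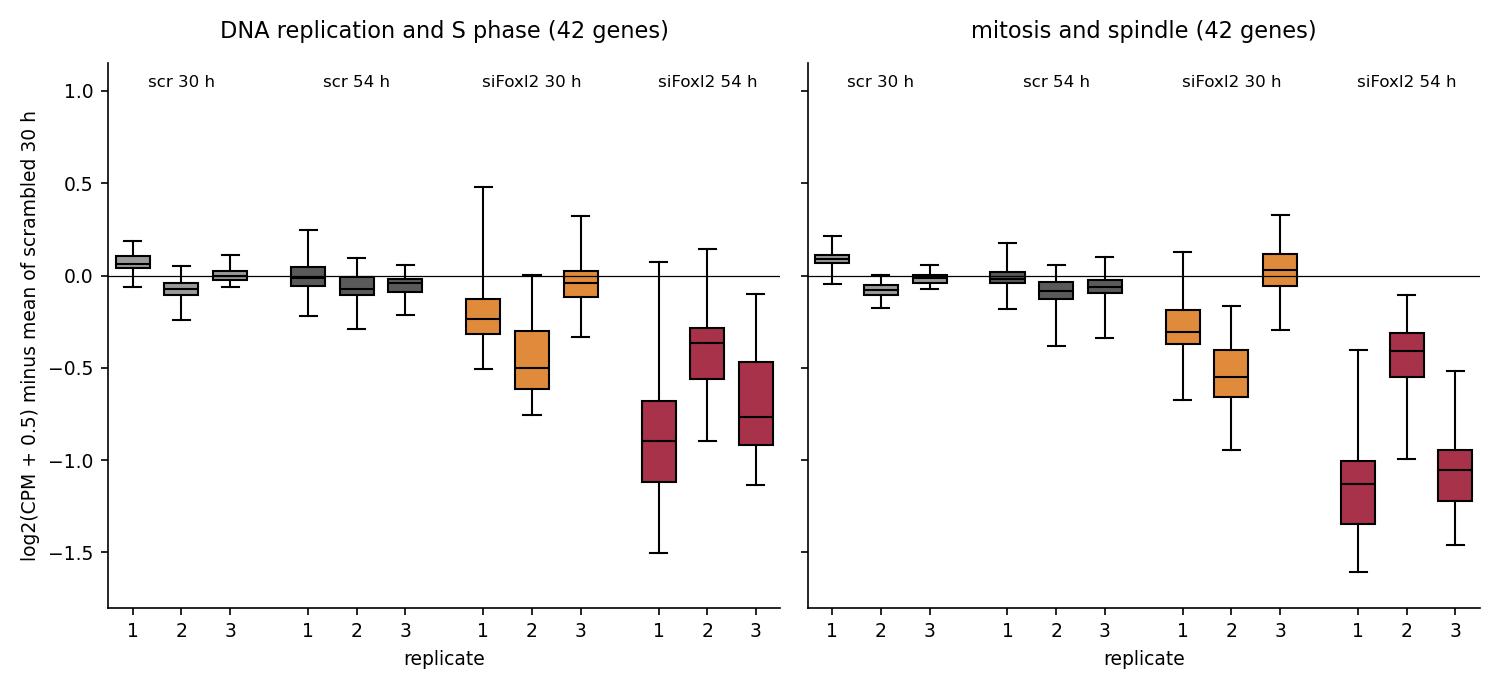
Log2(CPM + 0.5) of 42 S-phase genes (left) and 42 mitosis genes (right) in each library, minus the gene's mean in scrambled cells at 30 h; boxes show the quartiles and median, whiskers the full range. The mitosis medians were -1.13 and -1.05 in 54 h replicates 1 and 3 and -0.41 in 54 h replicate 2, which lies inside the range of the 30 h libraries.

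Receptors of axon and cell guidance changed in both directions. Robo2 (chr16:73891839-74411825, minus strand), a receptor for the secreted SLIT proteins, was at 133, 129.6 and 168 CPM at 30 h and 51.8, 74.3 and 55.6 CPM at 54 h, so that every 54 h library lay below every 30 h library, and it fell 2.37-fold (log2 change -1.25, SE 0.15, adjusted p = 0.00104). Robo1 (chr16:72308306-73046095, plus strand), its relative, was at 44.8, 49.4 and 39.0 CPM at 30 h and 23.7, 21.8 and 27.8 CPM at 54 h, again without overlap, and fell 1.82-fold (log2 change -0.86, SE 0.09, adjusted p = 0.000936). In scrambled cells Robo2 was at 331 ± 7.51 CPM at 30 h and 342 ± 6.70 CPM at 54 h (SD, n = 3) and Robo1 at 66.3 ± 2.41 CPM at 30 h and 63.9 ± 0.681 CPM at 54 h (SD, n = 3). The differences of the changes missed the threshold (adjusted p = 0.0742 and 0.0766). Robo4, the family member best known from endothelium, rose: it was at 12.1, 8.20 and 7.97 CPM at 30 h and 40.6, 23.0 and 23.4 CPM at 54 h (log2 change 1.62, SE 0.27, adjusted p = 0.00599). Plxna4, a plexin that transmits semaphorin signals, was at 35.4, 40.9 and 17.0 CPM at 30 h and 92.01, 72.3 and 70.0 CPM at 54 h. Plxna4 rose (log2 change 1.33, SE 0.29, adjusted p = 0.0181), with 30 h replicate 3 the lowest library. Among migration and guidance genes, 4 of the 55 tested members rose and 2 fell (median log2 change 0.06, against 0.06 in scrambled cells). Together 10.9% of this list passed, beside 7.04% of all genes tested. The number that rose ran from 2 without 54 h replicate 1 to 6 without 54 h replicate 2. The number that fell ran from 2 without 30 h replicate 1, 30 h replicate 2, 54 h replicate 1 or 54 h replicate 3 to 6 without 54 h replicate 2. Robo1, Robo2 and Robo4 held. Plxna4 was not called without 54 h replicate 1 (adjusted p = 0.0703).

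**Figure D4:**
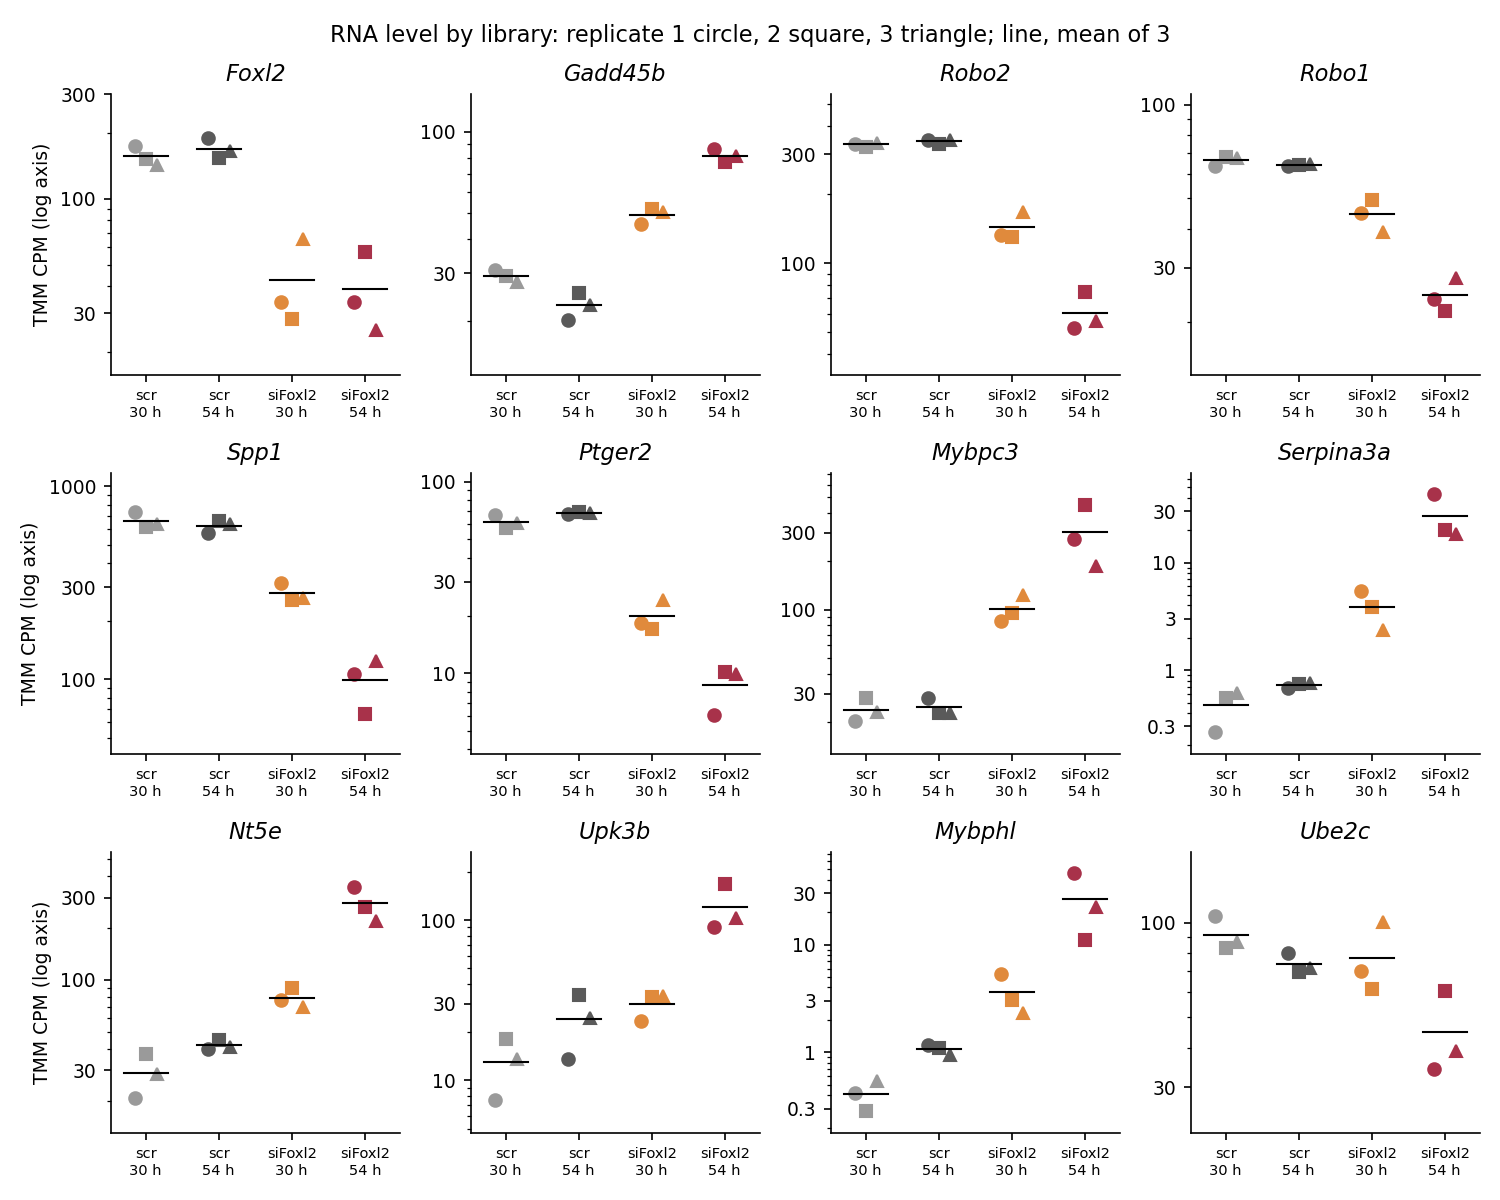
TMM-scaled CPM of 12 genes (log axis, each panel with its own range) in the scrambled (scr) and Foxl2 siRNA (siFoxl2) libraries at 30 h and 54 h; symbols mark replicates 1 to 3 and the line their mean. Foxl2 overlaps between the times with Foxl2 siRNA, while Robo2, Robo1, Spp1 and Ptger2 are lower and Gadd45b, Mybpc3, Serpina3a, Nt5e, Upk3b and Mybphl higher at 54 h in every library.

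Other large falls were in genes of secreted and signalling proteins. Spp1 (chr5:104435118-104441050, plus strand), which encodes the matrix glycoprotein osteopontin, was at 317, 258 and 266 CPM at 30 h and 107, 66.0 and 125 CPM at 54 h. Spp1 fell 2.83-fold (log2 change -1.498, SE 0.23, adjusted p = 0.00374). Scrambled cells were at 665 ± 64.9 CPM at 30 h and 625 ± 48.1 CPM at 54 h (SD, n = 3). Ptger2, the receptor for prostaglandin E2 through which cumulus cells respond at ovulation, was at 18.4, 17.1 and 24.0 CPM at 30 h and 6.07, 10.2 and 9.86 CPM at 54 h. Ptger2 fell (log2 change -1.18, SE 0.17, adjusted p = 0.00273). Neither gene's times overlapped, and both held. Pde4b, a phosphodiesterase that degrades cyclic AMP, fell by 1.20 on the log2 scale, from 36.3, 28.6 and 47.4 CPM at 30 h to 12.8, 19.8 and 16.4 CPM at 54 h (adjusted p = 0.00417). Ndst4, an enzyme that sulfates heparan chains, was at 15.2, 10.5 and 13.3 CPM at 30 h and 4.66, 4.52 and 4.18 CPM at 54 h. Ndst4 fell (log2 change -1.54, adjusted p = 0.00599). Hpse, the heparanase that cuts such chains, was at 1.67, 1.28 and 2.42 CPM at 30 h and 0.462, 0.944 and 0.655 CPM at 54 h. Hpse fell (log2 change -1.37, adjusted p = 0.0108). Ddx4, a germ cell RNA helicase, was at 3.13, 2.11 and 2.13 CPM at 30 h and 1.01, 0.792 and 1.19 CPM at 54 h. Ddx4 fell (log2 change -1.30, adjusted p = 0.00572). These 4 held. Cxcl13 (chr5:95956951-95961068, plus strand), a chemokine that attracts B cells, was at 3.41, 1.54 and 5.61 CPM at 30 h and 0.198, 0.455 and 0.212 CPM at 54 h. Cxcl13 fell (log2 change -3.56, SE 0.70, adjusted p = 0.0119), the largest fall at this level, with a mean of 12.5 CPM in scrambled cells at 30 h and 6.00 CPM at 54 h. Coch, a secreted matrix protein, was at 15.7, 10.2 and 14.6 CPM at 30 h and 6.16, 4.28 and 5.66 CPM at 54 h. Coch fell (log2 change -1.33, adjusted p = 0.0154). Lce1g, a member of the late cornified envelope family whose copies are alike in sequence, was at 9.65, 10.1 and 19.5 CPM at 30 h and 2.68, 2.61 and 4.76 CPM at 54 h. Lce1g fell (log2 change -1.96, adjusted p = 0.0160). It was lower at 54 h in scrambled cells as well, at 18.4 ± 5.63 CPM at 30 h and 4.12 ± 0.222 CPM at 54 h (SD, n = 3). Among inflammatory cytokines and chemokines, 0 of the 31 tested members rose and 3 fell (median log2 change 0.14, against -0.05 in scrambled cells), and the falls ran from 0 without 54 h replicate 1 to 5 without 54 h replicate 3. Besides Cxcl13 these falls included Tnfaip3, an inhibitor of NF-kappa-B (log2 change -0.76, adjusted p = 0.0397), called in 1 of the 6 leave-one-out fits. In scrambled cells Tnfaip3 had a log2 change of -0.53 (adjusted p = 0.848). Of the cytokine and chemokine list 9.68% passed, beside 7.04% of all genes tested. Cxcl13 was not called without 54 h replicate 1 (adjusted p = 0.0588). Coch was not called without 30 h replicate 1 (adjusted p = 0.0512). Lce1g was not called without 30 h replicate 3 or 54 h replicate 1 (adjusted p from 0.0591 to 0.0705).

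Some markers of the ovarian surface epithelium, the mesothelial layer around the ovary, rose: 8 of the 19 tested members rose and 0 fell (median log2 change 0.46, against 0.12 in scrambled cells), and 17 changes were positive. The called share was 42.1%, beside 7.04% of all genes tested. Upk3b, a uroplakin of mesothelium, was at 23.6, 33.2 and 33.5 CPM at 30 h and 90.5, 167 and 103 CPM at 54 h. Upk3b rose 3.998-fold (log2 change 1.999, SE 0.38, adjusted p = 0.0114). The lowest 54 h library lay far above the highest 30 h library. Lrrn4, a leucine-rich repeat protein of mesothelium, was at 2.22, 4.27 and 1.91 CPM at 30 h and 19.2, 14.2 and 15.3 CPM at 54 h. Lrrn4 rose (log2 change 2.53, SE 0.51, adjusted p = 0.0141). Nt5e (chr9:88327197-88372092, plus strand), the ectoenzyme that makes adenosine, is on the list of YAP and TEAD targets rather than on this list. It was at 76.4, 89.5 and 69.4 CPM at 30 h and 347, 265 and 221 CPM at 54 h, and rose 3.54-fold (log2 change 1.82, SE 0.22, adjusted p = 0.00137). Scrambled cells were at 28.9 ± 8.19 CPM at 30 h and 41.7 ± 2.59 CPM at 54 h (SD, n = 3). In scrambled cells Upk3b went from 13.1 ± 5.27 CPM at 30 h to 24.0 ± 10.2 CPM at 54 h (SD, n = 3), and its difference of changes had an adjusted p of 0.504. The summed level of the 19 markers was 8175 to 8513 CPM at 30 h, 8201 to 9936 CPM at 54 h and 4627 to 5629 CPM in the scrambled libraries, and 0 of them were without counts in all 6 libraries. The number that rose ran from 4 without 30 h replicate 3 to 9 without 54 h replicate 2 and was 9 without both libraries that kept the most Foxl2. It was 3 with Foxl2 as a covariate in the 6 Foxl2 siRNA libraries, in which no gene was called without the covariate. Upk3b and Nt5e held. Lrrn4 was not called without 30 h replicate 1 or 3 (adjusted p from 0.0550 to 0.0558). Wt1, on this list, is also a gene of Sertoli and granulosa cells. The Sertoli, sarcomere, adhesion and matrix lists also had more rises than falls, and the part of these markers in those rises was not tested.

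Genes of Sertoli cells and the testis had a median log2 change of 0.70 (-0.02 in scrambled cells): 7 of the 27 tested members rose and 1 fell. The called share was 29.6%, beside 7.04% of all genes tested. Wt1, a zinc finger factor of gonadal somatic cells, was at 234, 179 and 155 CPM at 30 h and 359, 267 and 268 CPM at 54 h. Wt1 rose (log2 change 0.65, SE 0.16, adjusted p = 0.0307). Amh, anti-Müllerian hormone, which both Sertoli and granulosa cells secrete, was at 0.323, 0.356 and 0.236 CPM at 30 h and 1.87, 0.438 and 0.886 CPM at 54 h. Amh rose (log2 change 1.78, SE 0.47, adjusted p = 0.0388). Its rise started from a very low level, and 54 h replicate 2 lay only just above the 30 h libraries. Cldn11, the claudin of the barrier between Sertoli cells, was at 4.46, 2.27 and 1.56 CPM at 30 h and 19.4, 4.28 and 6.16 CPM at 54 h. Cldn11 rose (log2 change 1.85, SE 0.49, adjusted p = 0.0400), with 54 h replicate 2 below 30 h replicate 1. Cyp26b1, which degrades retinoic acid and keeps germ cells of the fetal testis out of meiosis, fell: it was at 448, 373 and 582 CPM at 30 h and 135, 303 and 121 CPM at 54 h (log2 change -1.33, SE 0.31, adjusted p = 0.0235). In scrambled cells its log2 change was -0.74 (adjusted p = 0.927). Sox9, the factor that directs Sertoli cell fate, was at 44.3, 33.1 and 16.9 CPM at 30 h and 110.3, 31.4 and 72.3 CPM at 54 h and did not pass (log2 change 1.18, SE 0.37, adjusted p = 0.0741). 54 h replicate 2 lay below 2 of the 30 h libraries, and without it Sox9 passed (log2 change 1.54, adjusted p = 0.00391). Its relative Sox8 was at 34.7, 20.7 and 21.8 CPM at 30 h and 32.8, 34.0 and 24.0 CPM at 54 h. Sox8 did not pass (log2 change 0.23, adjusted p = 0.484). Ptgds, a prostaglandin D synthase of the testis, was at 1.17, 1.80 and 2.09 CPM at 30 h and 3.34, 5.49 and 2.12 CPM at 54 h. Ptgds did not pass (log2 change 1.12, adjusted p = 0.0619). Dmrt1, the factor that maintains the male fate, was not tested: it had 2 counts in 54 h replicate 1 and 0 in the other Foxl2 siRNA and scrambled libraries. The number that rose ran from 2 without 30 h replicate 3 or 54 h replicate 1 to 12 without 54 h replicate 2, was 3 without 30 h replicate 2, and was 9 without both libraries that kept the most Foxl2. Wt1 and Cldn11 were not called without 30 h replicate 2 or 3 or 54 h replicate 1 (adjusted p from 0.0642 to 0.202). Amh was not called without 30 h replicate 1, 2 or 3 or 54 h replicate 1 or 3 (adjusted p from 0.0582 to 0.182). Cyp26b1 was not called without 30 h replicate 1 or 3 or 54 h replicate 1 or 3 (adjusted p from 0.0556 to 0.103). Without 54 h replicate 1 the log2 change of Amh was 1.10 and that of Cldn11 0.92.

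Some genes of striated muscle rose: in the list of sarcomere and cardiac muscle genes 7 of the 29 tested members rose and 0 fell (median log2 change 0.38, against -0.01 in scrambled cells). The called share was 24.1%, beside 7.04% of all genes tested. Mybpc3 (chr2:91118144-91136516, plus strand), cardiac myosin-binding protein C, was at 85.2, 95.6 and 124 CPM at 30 h and 275, 445 and 186 CPM at 54 h. Mybpc3 rose 2.97-fold (log2 change 1.57, SE 0.27, adjusted p = 0.00741), with 54 h replicate 2 the highest. Scrambled cells were at 24.0 ± 4.02 CPM at 30 h and 24.7 ± 3.17 CPM at 54 h (SD, n = 3). Mybphl (chr3:108364911-108380057, plus strand), a related protein of the atrium, was at 5.39, 3.06 and 2.34 CPM at 30 h and 45.7, 11.1 and 22.2 CPM at 54 h. Mybphl rose (log2 change 2.87, SE 0.45, adjusted p = 0.00456). Without 54 h replicate 1 its log2 change was 2.21. Tnni1, slow skeletal troponin I, went from 0.0605, 0.0988 and 0.217 CPM at 30 h to 0.726, 1.01 and 0.405 CPM at 54 h (log2 change 2.49, SE 0.51, adjusted p = 0.0151), from 19 reads in the 30 h libraries together. Unc45b, a myosin chaperone of muscle, was at 1.84, 1.19 and 2.46 CPM at 30 h and 10.3, 18.5 and 4.80 CPM at 54 h. Unc45b rose (log2 change 2.62, SE 0.45, adjusted p = 0.00703). Myoz2, a Z-disc protein, was at 0.161, 0.277 and 0.0787 CPM at 30 h and 1.78, 0.354 and 1.08 CPM at 54 h. Myoz2 rose (log2 change 2.61, SE 0.60, adjusted p = 0.0242). These were among the largest rises and are not on the list. For Tnni1 and Myoz2, only the 54 h Foxl2 siRNA group, among the Foxl2 siRNA and scrambled groups, had enough reads for the filter. Both were high in that group, so the filter favoured a rise. Asb12, an ankyrin-repeat protein, was at 37.1, 32.9 and 27.3 CPM at 30 h and 58.8, 46.3 and 51.2 CPM at 54 h. Asb12 rose (log2 change 0.68, SE 0.18, adjusted p = 0.0386). Like Mybpc3, it was on the panel for its known pattern in these data. Among smooth muscle and pericyte markers, 0 of 15 tested passed in either direction (median log2 change 0.12, against -0.44 in scrambled cells), and their summed level was 928 to 1693 CPM at 30 h, 1005 to 1856 CPM at 54 h and 693 to 1899.5 CPM in the scrambled libraries. The number of listed genes that rose ran from 3 without 30 h replicate 1 to 8 without 54 h replicate 2. Mybpc3, Mybphl and Unc45b held. Tnni1 was not called without 30 h replicate 1 (adjusted p = 0.0573). Myoz2 was not called without 30 h replicate 1 or 3 or 54 h replicate 1 (adjusted p from 0.0774 to 0.103). Asb12 was not called without 30 h replicate 1, 2 or 3 or 54 h replicate 1 or 3 (adjusted p from 0.0568 to 0.1505). Without 30 h replicate 3 the log2 change of Tnni1 was 3.13.

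Of the adhesion and matrix genes described here, Col14a1 and Fras1 rose and Pcdh18 fell in all 6 leave-one-out fits. Col14a1 (chr15:55307750-55520803, plus strand), a collagen that decorates fibrils, was at 0.363, 0.415 and 0.354 CPM at 30 h and 4.91, 1.16 and 3.20 CPM at 54 h. Col14a1 rose 8.11-fold (log2 change 3.02, SE 0.58, adjusted p = 0.0115), with 54 h replicate 2 the lowest of its group. Fras1, a matrix protein of epithelial basement membranes, was at 4.62, 5.59 and 5.31 CPM at 30 h and 13.8, 15.3 and 7.42 CPM at 54 h. Fras1 rose (log2 change 1.24, SE 0.22, adjusted p = 0.00876), and did not overlap between the times. Pcdh18, a protocadherin, fell from 11.5, 15.9 and 14.3 CPM at 30 h to 4.49, 6.98 and 9.46 CPM at 54 h (log2 change -0.99, SE 0.20, adjusted p = 0.0129). Dcn, the proteoglycan decorin and a marker of stroma, was at 19.5, 37.3 and 32.8 CPM at 30 h and 63.5, 100.5 and 93.8 CPM at 54 h. Dcn rose (log2 change 1.53, SE 0.32, adjusted p = 0.0158). In scrambled cells it was at 26.5 ± 9.18 CPM at 30 h and 54.9 ± 4.93 CPM at 54 h (SD, n = 3), and the difference of the changes did not pass (adjusted p = 0.794). Among integrins and focal adhesion genes 7 of the 42 tested members rose and 0 fell (median log2 change 0.08, against -0.07 in scrambled cells). Among basement membrane genes 3 of the 26 tested members rose and 0 fell (median log2 change 0.30, against -0.04 in scrambled cells). Among interstitial matrix genes 4 of the 36 tested members rose and 1 fell (median log2 change 0.34, against 0.24 in scrambled cells), Spp1 being the fall. Among cell junction genes 4 of the 44 tested members rose and 1 fell (median log2 change 0.17, against -0.02 in scrambled cells). Among invasion proteases and their inhibitors 5 of the 43 tested members rose and 1 fell (median log2 change 0.13, against 0.06 in scrambled cells), the falls being Pcdh18 and Hpse. The called shares of these lists, in this order, were 16.7%, 11.5%, 13.9%, 11.4% and 14%, beside 7.04% of all genes tested. Other members that rose were Itgb8, the integrin chain that activates TGF-beta, Parvb, a parvin that links integrins to actin, Cldn3, a claudin, Mmp10, a stromelysin, and Ctsl, cathepsin L: they had log2 changes of 0.69 to 1.73 (adjusted p from 0.0162 to 0.0324), and each was called in 1 to 5 of the 6 leave-one-out fits. For integrins the number that rose ran from 3 without 54 h replicate 1 to 8 without 54 h replicate 2. For the basement membrane it ran from 2 without 30 h replicate 1, 30 h replicate 3 or 54 h replicate 1 to 6 without 54 h replicate 2. For interstitial matrix it ran from 2 without 30 h replicate 1 or 30 h replicate 3 to 7 without 30 h replicate 2. For junctions it ran from 1 without 30 h replicate 3 to 8 without 54 h replicate 2, and for proteases from 1 without 30 h replicate 3 or 54 h replicate 1 to 8 without 54 h replicate 2. Dcn was not called without 30 h replicate 1 (adjusted p = 0.0556).

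In the signalling lists 5.26% (ERK feedback) to 13.6% (IGF) of the tested members passed, beside 7.04% of all genes tested. Rspo1, which enhances Wnt signals and promotes ovarian fate in the embryo, was at 0.726, 0.810 and 1.024 CPM at 30 h and 5.70, 6.71 and 3.18 CPM at 54 h. Rspo1 rose 6.07-fold (log2 change 2.60, SE 0.46, adjusted p = 0.00774). The times did not overlap. Dusp5, a nuclear phosphatase of the kinase ERK, was at 4.86, 5.08 and 4.39 CPM at 30 h and 8.97, 8.29 and 7.69 CPM at 54 h. Dusp5 rose (log2 change 0.80, SE 0.14, adjusted p = 0.00760), again without overlap. Both held. In the Wnt and R-spondin list 4 of the 40 tested members rose and 1 fell (median log2 change 0.05, against 0.02 in scrambled cells). In the TGF-beta, BMP and activin list 3 of the 42 tested members rose and 0 fell (median log2 change 0.08, against 0.11 in scrambled cells). In the IGF list 3 of the 22 tested members rose and 0 fell (median log2 change 0.05, against 0.08 in scrambled cells). In the YAP and TEAD list 3 of the 24 tested members rose and 0 fell (median log2 change 0.02, against -0.17 in scrambled cells). In the Notch list 2 of the 19 tested members rose and 0 fell (median log2 change 0.12, against 0.02 in scrambled cells). In the list of ERK feedback genes 1 of the 19 tested members rose and 0 fell (median log2 change -0.03, against -0.09 in scrambled cells). Among the rises were Wnt6, a Wnt ligand, Bmp7, a bone morphogenetic protein, Stc1, stanniocalcin, Igfbp3, an IGF-binding protein, Lfng, a Fringe enzyme that modifies Notch, and Dtx1, a Notch-binding ligase, with log2 changes of 0.70 to 2.37 (adjusted p from 0.0297 to 0.0483), and each was called in 1 to 3 of the 6 leave-one-out fits. Leaving out 1 library moved the log2 change of Stc1 to 1.59 without 54 h replicate 2. That of Wnt6 was 1.20 without 54 h replicate 1 and 2.52 without 30 h replicate 1. Znrf3, the ubiquitin ligase that removes Wnt receptors, fell (log2 change -0.35, SE 0.08, adjusted p = 0.0188). Znrf3 was not called without 54 h replicate 1 (adjusted p = 0.0703). The rises ran from 1 without 30 h replicate 3 or 54 h replicate 1 to 5 without 54 h replicate 2 in the Wnt list. They ran from 0 without 30 h replicate 3 or 54 h replicate 1 to 5 without 54 h replicate 2 in the TGF-beta list and from 0 without 30 h replicate 3 or 54 h replicate 1 to 4 without 54 h replicate 2 in the IGF list. YAP and TEAD targets that rose ran from 1 without 30 h replicate 1, 30 h replicate 3 or 54 h replicate 1 to 5 without 54 h replicate 2. Notch genes that rose ran from 0 without 30 h replicate 2, 30 h replicate 3, 54 h replicate 1 or 54 h replicate 3 to 6 without 54 h replicate 2.

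The granulosa identity list had 7.41% of its tested members called, beside 7.04% of all genes tested. In it 1 of the 27 tested members rose and 1 fell (median log2 change -0.14, against 0.09 in scrambled cells): Rspo1 rose, and Kitl, the ligand through which granulosa cells support the oocyte, fell from 347, 346 and 288 CPM at 30 h to 243, 225 and 271 CPM at 54 h (log2 change -0.41, SE 0.09, adjusted p = 0.0223). Cyp19a1, the aromatase that makes oestradiol, was at 0.0404, 0.178 and 0.965 CPM at 30 h and 0.0440, 0.0843 and 0.0385 CPM at 54 h and did not pass (log2 change -2.74, SE 0.87, adjusted p = 0.0778). Scrambled cells had means of 2.86 and 3.46 CPM. Without 30 h replicate 1 the log2 change of Cyp19a1 was -3.27 and passed (adjusted p = 0.0262). Without 30 h replicate 3, the highest of the 6 libraries, it was -0.91 (adjusted p = 0.484). Fst, follistatin, which binds activin, was at 6.22, 10.1 and 19.2 CPM at 30 h and 3.21, 14.8 and 7.97 CPM at 54 h. Fst did not pass (log2 change -0.44, adjusted p = 0.626). Grem1, a BMP antagonist, was at 2.28, 2.19 and 7.58 CPM at 30 h and 0.902, 12.3 and 1.25 CPM at 54 h. Grem1 did not pass (log2 change 0.29, adjusted p = 0.873). Slc16a11, a monocarboxylate transporter, was at 5.65, 4.90 and 13.2 CPM at 30 h and 1.43, 6.30 and 1.77 CPM at 54 h. Slc16a11 did not pass (log2 change -1.29, adjusted p = 0.107). Gpr165, an orphan receptor, was at 0.908, 0.849 and 2.70 CPM at 30 h and 0.396, 2.43 and 0.520 CPM at 54 h. Gpr165 did not pass (log2 change -0.37, adjusted p = 0.783). In these 4 genes 54 h replicate 2 was the highest 54 h library and 30 h replicate 3 the highest 30 h library, the libraries with the most Foxl2, and the times overlapped. Without 54 h replicate 2, Slc16a11 passed (log2 change -2.30, adjusted p = 0.00179) and so did Esr2 (log2 change -0.98, adjusted p = 0.00527), and the change of Grem1 turned to -1.89 (adjusted p = 0.0492). In the same fit the log2 change was -1.69 for Gpr165 and -1.07 for Fst, and neither passed (adjusted p = 0.0704 and 0.110). Without 30 h replicate 3 it was 0.39 for Gpr165, 0.10 for Fst, 1.14 for Grem1 and -0.70 for Slc16a11, so that Gpr165 and Fst turned in direction. The nuclear receptors Nr5a2 (log2 change -0.44, adjusted p = 0.0562; 0.0293 without 30 h replicate 3), Nr5a1 (log2 change -0.13, adjusted p = 0.185), Esr1 (log2 change -0.03, adjusted p = 0.960) and Pgr (log2 change 0.28, adjusted p = 0.865) did not pass, nor did Runx1 (log2 change -0.24, adjusted p = 0.323), Inha (log2 change -0.14, adjusted p = 0.695), Inhba (log2 change -0.14, adjusted p = 0.749), Fshr (log2 change -0.41, adjusted p = 0.662) or the integrin gene Itga2 (log2 change -0.01, adjusted p = 0.993). Leaving out 1 library also turned the direction of Esr1, Esr2, Foxl2, Inha, Inhba, Itga2 and Pgr, none of which passed with all libraries. Kitl was not called without 30 h replicate 1 or 54 h replicate 1 (adjusted p from 0.0774 to 0.0822).

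In the steroidogenesis list 1 of the 18 tested members rose and 1 fell (median log2 change -0.14, against 0.03 in scrambled cells). Fdx1, the ferredoxin that passes electrons to the mitochondrial steroid enzymes, was at 706, 641 and 631 CPM at 30 h and 463, 293 and 469.8 CPM at 54 h. Fdx1 fell (log2 change -0.69, SE 0.15, adjusted p = 0.0190). Its log2 change in scrambled cells was -0.35 (adjusted p = 0.987). Star, which carries cholesterol into mitochondria, was at 542, 498 and 294 CPM at 30 h and 847, 295 and 775 CPM at 54 h. Star did not pass (log2 change 0.52, adjusted p = 0.333). Cyp11a1, the side-chain cleavage enzyme, was at 4419, 4184 and 3572 CPM at 30 h and 3255, 2423 and 3856 CPM at 54 h. Cyp11a1 did not pass (log2 change -0.35, adjusted p = 0.149). Its log2 change in scrambled cells was -0.37 (adjusted p = 0.861). Hsd3b1, which makes progesterone, was at 1327, 1552 and 2042 CPM at 30 h and 943, 1584 and 1199.9 CPM at 54 h. Hsd3b1 did not pass (log2 change -0.40, adjusted p = 0.192). The libraries of the times overlapped for these 3, and none passed with all libraries. Without 54 h replicate 2, Star passed with a log2 change of 0.87 (adjusted p = 0.00660) and Hsd3b1 with -0.62 (adjusted p = 0.0188), and without 54 h replicate 3 Cyp11a1 with -0.52 (adjusted p = 0.0451). Hsd17b3, the testicular enzyme that makes testosterone, had 6 reads in the 30 h libraries together and was at 0.0807, 0 and 0.0394 CPM at 30 h and 1.08, 0.236 and 0.270 CPM at 54 h. It passed (log2 change 3.62, adjusted p = 0.0212), and its fitted change depends on the prior count. The 54 h libraries held 77 reads together, and the scrambled libraries 1 at 30 h and 6 at 54 h. Of these groups only the 54 h Foxl2 siRNA group had enough reads for the filter, so the filter favoured a rise. Hsd17b3 is the rise counted in both the steroidogenesis list and the list of Leydig and androgen genes. Lhcgr, the luteinising hormone receptor, was at 0.182, 0.198 and 0.374 CPM at 30 h and 0.0440, 0.0843 and 0.0771 CPM at 54 h and fell (log2 change -1.81, adjusted p = 0.0151). The fall rests on 38 reads at 30 h and 11 at 54 h, each over all libraries of the group. With only the 6 Foxl2 siRNA libraries in the fit, Lhcgr had too few reads to be tested. It is counted as a fall in the Leydig, luteal and theca lists. Scrambled cells were at 0.439 ± 0.0640 CPM at 30 h and 0.753 ± 0.142 CPM at 54 h (SD, n = 3). Scarb1, which takes up cholesterol from high-density lipoprotein, was at 391, 304 and 279.6 CPM at 30 h and 219.7, 190.2 and 238 CPM at 54 h. Scarb1 fell (log2 change -0.59, adjusted p = 0.0161). Its log2 change in scrambled cells was -0.28 (adjusted p = 0.998). In the list of Leydig and androgen genes 1 of the 11 tested members rose and 1 fell (median log2 change -0.20, against 0.11 in scrambled cells). In the luteal list 1 of the 17 tested members rose and 4 fell (median log2 change -0.37, against -0.12 in scrambled cells). In the list of cholesterol synthesis and uptake 0 of the 26 tested members rose and 1 fell (median log2 change -0.03, against -0.0024 in scrambled cells). Of the ovulation and cumulus genes, 2 of the 29 tested members rose and 2 fell (median log2 change 0.03, against 0.15 in scrambled cells), Ptger2 and Tnfaip3 being the falls. The called shares were 11.1% (steroidogenesis), 18.2% (Leydig and androgen), 29.4% (luteal), 3.85% (cholesterol) and 13.8% (ovulation and cumulus), beside 7.04% of all genes tested. Further members were Prlr, the prolactin receptor (log2 change -0.81, adjusted p = 0.0243), Abca1, which exports cholesterol (log2 change 0.47, adjusted p = 0.0304), and Edn2, an endothelin of follicle rupture (log2 change 1.93, adjusted p = 0.0323), each called in 2 to 3 of the 6 leave-one-out fits. The luteal falls ran from 0 without 54 h replicate 1 to 6 without 54 h replicate 2. Fdx1 was not called without 30 h replicate 1 (adjusted p = 0.0624). Hsd17b3 and Lhcgr were not called without 30 h replicate 3 or 54 h replicate 1 (adjusted p from 0.0643 to 0.102). Scarb1 was not called without 30 h replicate 1 or 54 h replicate 1 (adjusted p from 0.0509 to 0.0550). Without 54 h replicate 1 the log2 change of Hsd17b3 was 2.60 and without 30 h replicate 1 4.55.

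In the stress and metabolic lists 23.5% (unfolded protein), 15.2% (sulfur and glutathione), 8.82% (glycolysis), 8.33% (p53) and 6.25% (immediate early) of the tested members passed, beside 7.04% of all genes tested. Atf3, a transcription factor induced by stress, was at 4.56, 4.36 and 4.45 CPM at 30 h and 8.80, 7.63 and 7.42 CPM at 54 h, rising in every library of 54 h over every library of 30 h (log2 change 0.83, SE 0.14, adjusted p = 0.00570). Edem1, which sends misfolded proteins to degradation, was at 138, 140.5 and 142 CPM at 30 h and 104, 123 and 112 CPM at 54 h. Edem1 fell (log2 change -0.31, SE 0.06, adjusted p = 0.00814). Gstm2, a glutathione transferase, was at 265, 212 and 179 CPM at 30 h and 712, 368 and 649 CPM at 54 h. Gstm2 rose (log2 change 1.40, SE 0.20, adjusted p = 0.00273). Gstm1, a near copy, was at 359, 328 and 228 CPM at 30 h and 734, 396 and 700.1 CPM at 54 h. Gstm1 rose (log2 change 0.999, SE 0.22, adjusted p = 0.0188), and how reads shared between such copies were counted is not given in the sources used here. Bik, which promotes apoptosis, was at 1.96, 1.66 and 1.93 CPM at 30 h and 10.2, 6.71 and 3.91 CPM at 54 h. Bik rose (log2 change 1.91, SE 0.28, adjusted p = 0.00311). Pdk1, which holds pyruvate back from mitochondria, was at 7.28, 7.52 and 7.05 CPM at 30 h and 13.1, 9.69 and 11.1 CPM at 54 h. Pdk1 rose (log2 change 0.63, SE 0.12, adjusted p = 0.0115). Atf3, Edem1, Gstm2, Bik and Pdk1 held, and none of them overlapped between the times. In the list of the unfolded protein and integrated stress response 3 of the 34 tested members rose and 5 fell (median log2 change -0.09, against 0.04 in scrambled cells). In the list of immediate early and dissociation stress genes 2 of the 32 tested members rose and 0 fell (median log2 change -0.11, against -0.14 in scrambled cells). In the group of sulfur amino acid and glutathione genes 5 of the 33 tested members rose and 0 fell (median log2 change 0.07, against 0.0033 in scrambled cells). In that of glycolysis and hypoxia 3 of the 34 tested members rose and 0 fell (median log2 change 0.12, against -0.01 in scrambled cells). In that of p53 targets and apoptosis 3 of the 36 tested members rose and 0 fell (median log2 change 0.11, against -0.05 in scrambled cells). Further rises were Atf5, a relative of Atf3, Socs3, a cytokine feedback gene, Pfkl, phosphofructokinase, and Sesn1, a sestrin, with log2 changes of 0.33 to 0.55 (adjusted p from 0.0199 to 0.0474), and each was called in 1 to 4 of the 6 leave-one-out fits. Their log2 changes were 0.33, 0.43, 0.55 and 0.47, in this order. In scrambled cells they were 0.22, 0.37, 0.06 and 0.10, and none of these was called. Creld2, a chaperone-like secreted protein, fell (log2 change -0.33, adjusted p = 0.0405). Of the interferon and antigen presentation genes, 0 of 41 passed in either direction, though 33 of the changes were positive (median log2 change 0.25, against -0.02 in scrambled cells), and 3 rose without 54 h replicate 2. Falls in the unfolded protein list ran from 1 without 30 h replicate 1, 30 h replicate 3 or 54 h replicate 1 to 11 without 54 h replicate 2. Rises ran from 1 without 54 h replicate 1 to 8 without 54 h replicate 2 for sulfur and glutathione genes and from 1 without 30 h replicate 3 to 6 without 54 h replicate 2 for glycolysis. The p53 targets that rose ran from 1 without 30 h replicate 1, 30 h replicate 3, 54 h replicate 1 or 54 h replicate 3 to 6 without 54 h replicate 2. Creld2 was not called without 30 h replicate 1 or 3 or 54 h replicate 1 or 3 (adjusted p from 0.0557 to 0.149). Gstm1 was not called without 30 h replicate 3 or 54 h replicate 1 or 3 (adjusted p from 0.0536 to 0.0802).

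Genes of retinoid handling split. In their list 1 of the 16 tested members rose and 2 fell (median log2 change 0.29, against 0.05 in scrambled cells): Stra6, the receptor that takes up retinol, was at 8.96, 8.37 and 3.64 CPM at 30 h and 42.4, 14.2 and 33.3 CPM at 54 h. Stra6 rose 4.28-fold (log2 change 2.10, SE 0.38, adjusted p = 0.00945) and held, while Crabp2, which carries retinoic acid to the nucleus, was at 110.3, 114 and 172 CPM at 30 h and 42.3, 89.4 and 64.3 CPM at 54 h. Crabp2 fell (log2 change -1.017, SE 0.23, adjusted p = 0.0208). The called share was 18.8% in the retinoid list and 3.03% in the transporter list that follows, beside 7.04% of all genes tested. Of the amino acid and monocarboxylate transporters, 0 of the 33 tested members rose and 1 fell (median log2 change 0.07, against 0.17 in scrambled cells): Slc7a8, a carrier of neutral amino acids, was at 66.4, 63.1 and 122 CPM at 30 h and 18.9, 50.1 and 28.0 CPM at 54 h. Slc7a8 fell (log2 change -1.37, SE 0.32, adjusted p = 0.0242). Scrambled cells had a mean of 491 CPM at 30 h. Of the remaining large rises, Serpina3a (chr12:104112724-104121896, plus strand), of a serpin family with many near copies, was at 5.39, 3.87 and 2.36 CPM at 30 h and 43.0, 20.1 and 18.5 CPM at 54 h. Serpina3a rose (log2 change 2.81, SE 0.37, adjusted p = 0.00231) and held. Scin, an actin-severing protein, was at 11.97, 8.02 and 3.43 CPM at 30 h and 68.4, 12.5 and 32.4 CPM at 54 h. Scin rose (log2 change 2.27, SE 0.50, adjusted p = 0.0199). Mest, an imprinted gene, was at 1.63, 4.01 and 1.52 CPM at 30 h and 16.7, 4.77 and 12.4 CPM at 54 h. Mest rose (log2 change 2.24, SE 0.53, adjusted p = 0.0276). Cited1, a transcriptional coactivator, was at 0.383, 0.217 and 0.157 CPM at 30 h and 3.41, 0.472 and 0.867 CPM at 54 h. Cited1 rose (log2 change 2.62, SE 0.62, adjusted p = 0.0264). Dusp15, a phosphatase, was at 0.161, 0.217 and 0.217 CPM at 30 h and 2.16, 0.573 and 0.616 CPM at 54 h. Dusp15 rose (log2 change 2.46, SE 0.50, adjusted p = 0.0152). In Scin, Mest, Cited1 and Dusp15, 54 h replicate 1 was the highest library, and 54 h replicate 2 was the lowest of its group. Crabp2 and Slc7a8 were not called without 30 h replicate 3 or 54 h replicate 1 or 3 (adjusted p from 0.0545 to 0.0929). Scin was not called without 30 h replicate 3 or 54 h replicate 1 (adjusted p from 0.0647 to 0.0858). Mest was not called without 30 h replicate 1 or 3 or 54 h replicate 1 or 3 (adjusted p from 0.0577 to 0.110). Cited1 was not called without 30 h replicate 1, 2 or 3 or 54 h replicate 1 (adjusted p from 0.0506 to 0.0956). Dusp15 was not called without 30 h replicate 1 (adjusted p = 0.0571). Without 54 h replicate 1 the log2 change was 1.52 for Scin, 1.39 for Cited1 and 1.57 for Dusp15, and without 30 h replicate 2 it was 2.84 for Mest.

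Of the marker lists of other cell types that the cultures could hold, those of theca and stroma, leukocytes, endothelium, oocytes and red cells had 0 to 2 called members each. The called shares, in this order, were 14.3%, 0%, 0%, 25% and 50%, beside 7.04% of all genes tested. The oocyte and red cell shares rest on only 4 and 2 tested members. The summed level of the theca and stroma markers was 7916 to 8519 CPM at 30 h, 7858 to 10050.3 CPM at 54 h and 4462 to 5772 CPM in the scrambled libraries. Aldh1a1 is both among them and among the surface epithelium markers. The median theca and stroma marker, relative to scrambled cells at 30 h, was at -0.42 to 0.23 log2 units at 30 h and -0.36 to 0.38 at 54 h. In scrambled libraries it was at -0.48 to 0.35 at 30 h and -0.20 to 0.60 at 54 h, so the medians overlapped where the sums did not. 1 of 14 tested rose, Dcn, and 1 fell, Lhcgr, and 8 of 18 were under 1 CPM in every Foxl2 siRNA library. Leukocyte markers summed to 5.83 to 8.94 CPM at 30 h, 6.27 to 7.41 CPM at 54 h and 4.76 to 6.04 CPM in the scrambled libraries, 16 of 19 were under 1 CPM, Tyrobp, S100a9, C1qa and C1qb had no counts, and 0 of 6 tested passed. Endothelium markers summed to 12.9 to 29.4 CPM at 30 h, 14.3 to 39.5 CPM at 54 h and 11.3 to 30.9 CPM in the scrambled libraries, with 9 of 16 under 1 CPM and 0 of 10 tested passing. Oocyte markers summed to 3.74 to 4.74 CPM at 30 h, 2.49 to 3.51 CPM at 54 h and 3.96 to 5.09 CPM in the scrambled libraries, with 17 of 18 under 1 CPM and the zona pellucida genes Zp1 and Zp3 at 0 counts. Ddx4 was the 1 of 4 tested that fell. Erythroid markers summed to 0.591 to 0.827 CPM at 30 h, 1.08 to 2.22 CPM at 54 h and 0.210 to 0.645 CPM in the scrambled libraries and the globin genes on the list had no counts. Alas2, the haem synthesis enzyme of red cells, was the 1 of 2 tested that rose, at 0.424, 0.553 and 0.335 CPM at 30 h and 2.05, 0.893 and 1.002 CPM at 54 h. Alas2 rose (log2 change 1.57, SE 0.33, adjusted p = 0.0160). Alas2 was not called without 30 h replicate 1 or 3 or 54 h replicate 1 (adjusted p from 0.0544 to 0.0627). The part of these cell types in the changes was not tested.

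**Figure D5:**
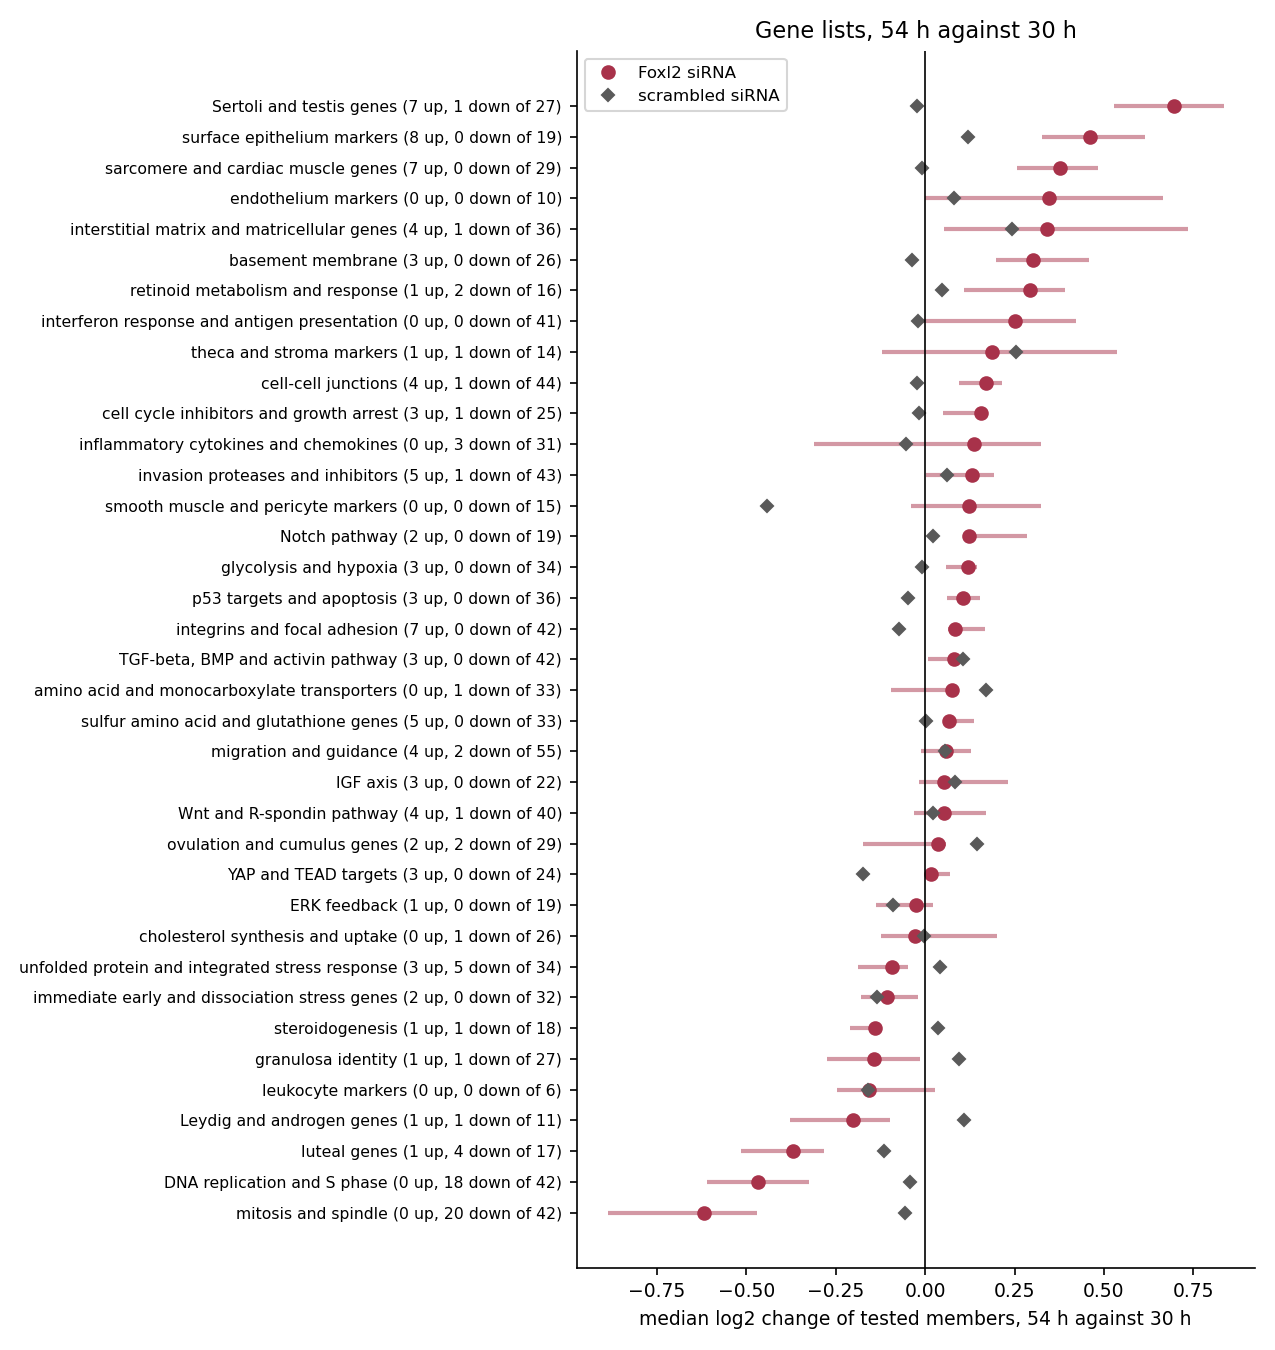
Median log2 change from 30 h to 54 h of the tested members of each list with 5 or more of them; red points, Foxl2 siRNA, with bars for the range over the 6 fits that leave out 1 Foxl2 siRNA library; grey diamonds, scrambled siRNA. Mitosis (-0.62) and S phase (-0.47) lie lowest, and the Sertoli (0.70) and surface epithelium (0.46) lists highest.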

How the data were processed

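RNA from mouse granulosa cells in culture was made into stranded poly(A) libraries and read as single reads of 75 bases, per the labels' protocols. The authors deposited raw read counts per gene for each library; mm10, TopHat2, bcl2fastq (version 2.15.0) and DESeq2 are listed, without roles, per the submitters' processing notes. The program that counted reads is not given in the sources used here. The protocol text describes extraction at 30 h only, whereas the sample labels give 30 h and 54 h, which were taken as the times. The 92 spike-in rows were left out, and 15 gene symbols that one deposited count file had altered were matched back to the other libraries. Library depth is given with the results. Replicate libraries of a group differed by far more than counting error (chi-square per degree of freedom 6.85 to 122), so none was merged.

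The test was edgeR's (version 4.0.16, R 4.3.3) on these counts, with TMM scaling, filterByExpr, 5 group means over 15 libraries, the quasi-likelihood test, and Benjamini-Hochberg adjustment over the 14907 genes tested, called at 0.05. Tools for alternatives were DESeq2 1.42.0 and limma 3.58.1 (voom with quality weights). Other alternatives changed the scaling, the filter, the libraries in the fit, a replicate block, or the Foxl2 level as a covariate. Each Foxl2 siRNA and each scrambled library was also left out in turn, while the Esr2 siRNA libraries were not. On simulated counts for the Foxl2 siRNA comparison (14907 genes), the procedure recovered 80 of 100 genes changed 2-fold and 97 of 100 changed 4-fold, with 9 false calls. The simulation gave all groups the same spread for a gene. In the data, replicates differed more with Foxl2 siRNA (chi-square per degree of freedom 44.4 to 122) than with scrambled siRNA (6.85 to 36.0). It therefore cannot say how many of the 1050 calls are false. Scrambled libraries of the same number deviated together for replicates 1 and 2 (r = 0.632 and 0.490), from the data and not from any statement in the labels. For replicate 3 the correlation was 0.143, below the 0.336 between 30 h replicate 3 and 54 h replicate 2.

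Named genes are the 12 largest called rises and the 12 largest called falls at 1 CPM or more whose libraries did not overlap between the times, a panel of genes tied to FOXL2 or to the ovary and testis, up to 2 called members each way of every list, and genes with a called difference between the changes. The 39 lists hold 1093 genes, of which 1085 were in the files. The members and lists were chosen with earlier results of these data known. Gene coordinates are GRCm38 (GENCODE M21) and promoter windows are RefSeq GRCm38.p6. A gene that the naming rule picked is not reported here.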

Additional observations from a re-analysis of the deposited data

Results flagged for a closer look

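Gadd45b was the gene whose change with time differed between Foxl2 siRNA and scrambled cells: the difference of the log2 changes was 1.09 (adjusted p = 0.00778, edgeR). It was higher at 54 h in 3 of 3 Foxl2 siRNA libraries than in every library of 30 h, at 86.5, 77.3 and 81.1 CPM against 45.4, 51.7 and 50.6 CPM, and lower at 54 h in 3 of 3 scrambled libraries, at 20.2, 25.4 and 22.8 CPM against 30.7, 29.2 and 27.7 CPM. Over 22 alternatives the difference ran from 1.01 to 1.16, and it was called in 21 of them. The exception was the replicate block (1.09, adjusted p = 0.0760).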

How the results depend on the processing

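The count of 1050 genes in Foxl2 siRNA cells became 1701 with DESeq2, 1602 with voom and 2055 without both libraries that kept the most Foxl2. It was 0 with only the 6 libraries. In those 6 libraries it was also 0 with a replicate block (lowest adjusted p = 0.119, with 1570 genes at an unadjusted p under 0.05). With Foxl2 as a covariate in the same 6 libraries it was 36. Leaving out 1 library gave 328 to 2637. Other scalings and filters gave 818 to 1110, and under the scalings the share of higher calls ran from 45.1% to 55.9%. The count of 1 in scrambled cells became 206 with only those libraries, 63 with DESeq2, 2693 with voom, 1586 with the replicate block, 20 without both Foxl2 siRNA libraries, and 0 with RLE scaling, without a filter and in each fit that left out 1 library (433 to 776 genes at an unadjusted p under 0.05). The count of 1 for the difference between the changes became 199 with DESeq2, 1056 with voom, 836 without both Foxl2 siRNA libraries, 0 with the replicate block, and 1 to 904 when 1 library was left out. The cause of these shifts was not tested. Fits of only the 6 libraries compared have fewer degrees of freedom and take the spread from those libraries alone. They gave 0 genes in Foxl2 siRNA cells and 206 in scrambled cells.

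In Foxl2 siRNA cells the replicate numbers did not pair the libraries: 30 h and 54 h libraries of the same number had correlations of 0.659, -0.257 and -0.294 for replicates 1, 2 and 3, and only replicate 1 correlated best with its own number. The correlation was 0.545 between 30 h replicate 2 and 54 h replicate 3 and 0.643 between 30 h replicate 3 and 54 h replicate 2, and no such pairing was fitted, so the replicate block speaks only of equal numbers. Leaving out 1 library turned the direction of 10 of 104 named genes, 0 of them called with all libraries; Grem1 alone turned to a called value, from a log2 change of 0.29 to -1.89 without 54 h replicate 2 (1.14 without 30 h replicate 3). Of the other values of named genes under alternatives, 1282 kept their direction and their side of the threshold, 419 lost their call, 24 gained one and 27 moved. Of the list counts and medians, 1409 stayed within the limits set and 577 moved. The times overlap in Foxl2 level, 3 libraries a group limit the precision, and 54 h replicates 1 and 2 move most counts.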
